A study of Mus musculus with 18 samples.

Results

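Retinas of mice carrying the L541P;A1038V substitutions in Abca4 on both alleles were compared with wild-type retinas across all measured genes. The comparison holds 6 of the 18 RNA-seq libraries of the series, 3 knock-in and 3 wild-type, and 14699 of the 22558 listed genes passed the expression filter and were tested. Mice were 30 days old and of mixed 129SV and C57BL/6 background in every genotype. The other 3 retinal libraries, from Abca4-/- mice of the same age and background, were fitted together with these 6, and RPE/choroid (retinal pigment epithelium with choroid) of the same 3 genotypes, 3 libraries each, served to follow the same genes in the neighbouring tissue. Nothing in the labels ties replicate libraries to separate animals, so p-values measure only the spread among these samples, which may be technical.

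The retinal libraries held 19056928 to 23579148 assigned fragments in knock-in, 13595016 to 21663355 in knockout and 11553291 to 15758014 in wild type, so every knock-in library was deeper than every wild-type library. By Xist and Ddx3y, transcripts of female and male cells, 3 of 3 knock-in, 2 of 3 knockout and 1 of 3 wild-type retinal libraries were female. Sex therefore moved with genotype, and fits with a sex term are given beside the counts. Libraries are named by genotype and by the number 0 to 2 of the deposited table. Levels are in FPKM, fragments per kilobase of transcript scaled to library depth, and changes are log2 ratios of knock-in to wild type from edgeR's quasi-likelihood test, adjusted over all tested genes by the Benjamini-Hochberg method and called at an adjusted p under 0.05.

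ABCA4 is a membrane transporter of the discs in photoreceptor outer segments. It moves retinoid conjugates across the disc membrane so that they can re-enter the visual cycle, and loss of its function in humans causes Stargardt disease, in which bisretinoids build up in the pigment epithelium. L541P and A1038V occur together on a human disease allele whose protein is known to misfold, which makes genes of protein quality control relevant beside those of the retinoid cycle.

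Both altered codons lie on the plus strand of chromosome 3, and each is shown in its reference context because the allele is defined by them. The codon of L541P is in exon 12 at chr3:122102741-122102743 and that of A1038V in exon 21 at chr3:122126182-122126184 (GRCm38, GENCODE M21), in a transcript of 50 exons. The codon is in capitals, with 30 coding bases on each side. Which base each substitution changes in these mice is not given in the sources used here.
Abca4 L541P codon: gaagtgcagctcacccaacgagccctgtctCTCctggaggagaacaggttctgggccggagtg
Abca4 A1038V codon: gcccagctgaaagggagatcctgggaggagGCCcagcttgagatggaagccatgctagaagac

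Abca4 RNA itself was somewhat lower in knock-in retina, without passing the test. It stood at 233, 197 and 182 FPKM in knock-in retina, at 81.8, 80.3 and 73.9 FPKM in knockout retina and at 282, 251 and 228 FPKM in wild-type retina. The highest knock-in library lay above the lowest wild-type library, and both groups lay far above every knockout library. The mean was 204 ± 25.8 FPKM in knock-in and 254 ± 27.4 FPKM in wild type (SD, n = 3 each), 80.4% of wild type, and edgeR gave log2 -0.30 (SE 0.0785, adjusted p = 0.186). The call was gained with DESeq2 (adjusted p = 0.0323) and without knock-in library 0 (edgeR adjusted p = 0.0409), and a sex term gave log2 -0.24 (edgeR adjusted p = 0.411). In RPE/choroid Abca4 stood at 36.7, 36.6 and 42.5 FPKM in knock-in, at 26.5, 25.6 and 26.2 FPKM in knockout and at 35.4, 38.4 and 59.5 FPKM in wild type (log2 -0.23, edgeR adjusted p = 0.888).

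The substitutions went with few changes in retinal RNA. Of 14699 tested genes 39 were called (0.265%), 21 higher (0.143%) and 18 lower (0.122%) in knock-in, and 17 of them differed at least 2-fold. FPKM of the groups did not overlap for 36 of the 39, against 8.77% of all tested genes, the exceptions being Adcy6, Filip1l and Tmlhe. An unadjusted p under 0.05 was found for 1250 genes (8.5%). Over all tested genes the median change was log2 0.00 and 50.2% lay above 0. The same fit called 185 genes between knock-in and knockout (1.26%) and 144 between knockout and wild type (0.98%), with control libraries shared between comparisons.

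**Figure D1:**
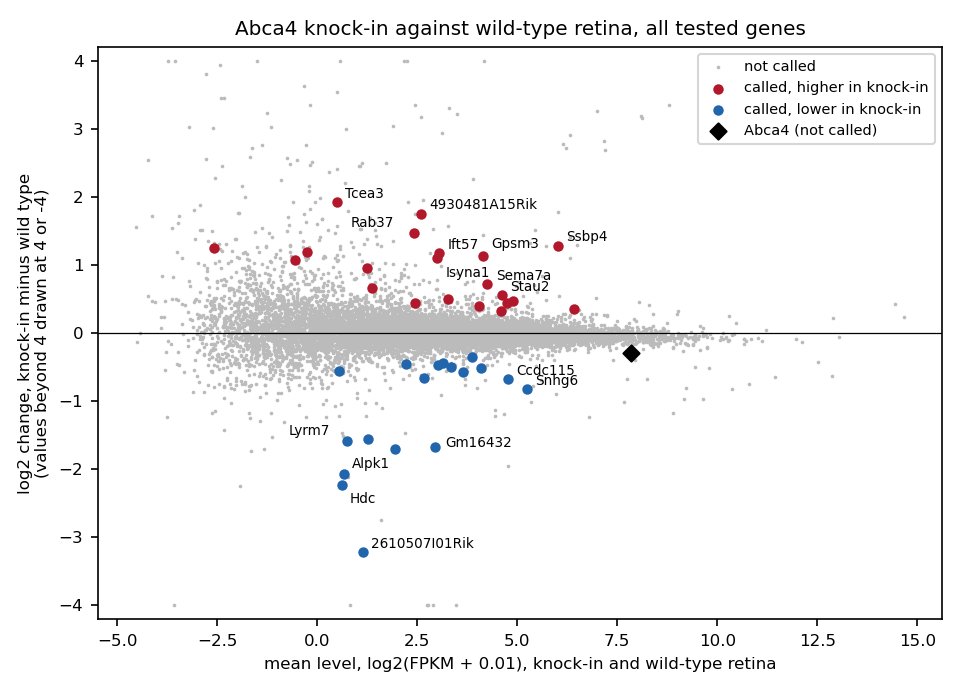
Each point is 1 of the 14699 tested genes, placed by its retinal level (log2 FPKM axis) and its log2 change, knock-in over wild type. Red points are the 21 genes called higher, blue points the 18 called lower, and the diamond is Abca4 at log2 -0.30. Most genes stay near 0.

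The count moved with single libraries and with a sex term. It was 15 without wild-type library 1, 23 without knock-in library 1 and 60 without knockout library 0. A sex term left 14 genes called, 10 of them among the 39, and the 6 female libraries alone, a choice made after seeing the data that leaves 1 wild-type library assumed to vary like the other groups, called 39, of which 12 were among the 39. All 39 genes kept their direction in every retinal fit run, and 13 kept their call without each of the 9 retinal libraries in turn. Of those 13, 10 were also called with the sex term, namely Alpk1, Hdc, Ccdc115, Ift57, Gpsm3, Sema7a, Stau2, 6430706D22Rik, Gm16432 and 4930481A15Rik, and the other 3 were Rab37, Ssbp4 and Arhgap29.

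The kinase Alpk1 had the smallest adjusted p of all tested genes. ALPK1 senses a bacterial sugar metabolite in the cytosol and phosphorylates the adaptor TIFA, which passes the signal on to NF-kB. Alpk1 stood at 0.635, 0.621 and 0.534 FPKM in knock-in retina, at 2.29, 2.4 and 2.5 FPKM in knockout retina and at 2.31, 2.8 and 2.51 FPKM in wild-type retina. Every knock-in library lay below all 6 others, on 77, 75 and 50 fragments against 189, 189 and 142 in wild type, and the mean was 23.5% of wild type (log2 -2.07, SE 0.126, adjusted p = 2.08e-06). Against knockout the difference was log2 -1.99 (adjusted p = 1.04e-06), and knockout stood at log2 -0.08 of wild type (adjusted p = 0.838).

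Tifa, the gene of the adaptor, stood at 4.45, 4.65 and 6.05 FPKM in knock-in retina, at 9.4, 8.45 and 9.6 FPKM in knockout retina and at 6.73, 7.54 and 8.89 FPKM in wild-type retina. Its knock-in libraries were again below all others (log2 -0.66, SE 0.104, adjusted p = 0.0169). Against knockout the difference was log2 -0.89 (adjusted p = 5.31e-04). The call was lost without knock-in library 0 or 1 or wild-type library 1 or 2 (adjusted p up to 0.0736). Of 19 tested genes of ALPK1, TIFA and NF-kB signalling, a list drawn up with earlier results of these data known, these 2 fell and none rose, against 0.265% of all tested genes called. The median of the list was log2 -0.01, against 0.00 for all genes. Tnip1, which restrains NF-kB and was not on that list, rose, at 11.4, 11.7 and 10.4 FPKM in knock-in retina, at 10.2, 10.4 and 7.23 FPKM in knockout retina and at 7.65, 8.63 and 8.14 FPKM in wild-type retina (log2 0.50, SE 0.094, adjusted p = 0.0454). This call was lost when any 1 of 6 libraries was left out (adjusted p up to 0.237).

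Alpk1 and Tifa lie head to head on opposite strands of chromosome 3, and the 250 bases upstream of each are shown because the pair fell together (RefSeq, GRCm38.p6). The Alpk1 window is chr3:127780528-127780777 on the minus strand, and the Tifa window, at the first of its listed starts, is chr3:127789622-127789871 on the plus strand. Neither held the core motif of the photoreceptor factor CRX (TAATCC), the endoplasmic reticulum stress element (CCAAT and CCACG with 9 bases between) or the unfolded protein response element (TGACGTGG) on either strand. Of all 27025 genes with a RefSeq promoter, 7.21%, 0.13% and 0.603%, in that order of motifs, held these letters in any of their windows. Of 29 genes matched among the 39 and Abca4, 3 held the CRX core (Abca4, 2610507I01Rik and Gm15348) and 0 held either stress element, which describes these windows and nothing more.
Alpk1 upstream: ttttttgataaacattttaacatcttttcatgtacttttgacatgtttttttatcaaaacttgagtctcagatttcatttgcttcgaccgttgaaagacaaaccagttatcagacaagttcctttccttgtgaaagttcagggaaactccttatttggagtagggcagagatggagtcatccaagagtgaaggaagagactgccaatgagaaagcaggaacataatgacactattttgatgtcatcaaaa
Tifa upstream: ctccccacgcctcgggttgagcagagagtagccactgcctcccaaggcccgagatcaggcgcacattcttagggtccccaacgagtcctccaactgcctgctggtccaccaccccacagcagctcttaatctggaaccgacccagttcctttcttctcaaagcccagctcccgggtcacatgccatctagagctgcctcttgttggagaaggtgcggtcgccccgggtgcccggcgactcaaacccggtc

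The match upstream of Abca4 begins 58 bases before its start and stands in capitals as GGATTA, the reverse complement of TAATCC, in the window chr3:122044210-122044459 on the plus strand.
Abca4 upstream: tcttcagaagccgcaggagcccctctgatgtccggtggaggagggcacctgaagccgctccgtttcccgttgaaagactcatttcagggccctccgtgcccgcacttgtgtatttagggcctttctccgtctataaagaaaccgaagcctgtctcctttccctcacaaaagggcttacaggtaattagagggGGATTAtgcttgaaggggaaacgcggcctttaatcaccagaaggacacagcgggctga

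Hdc encodes histidine decarboxylase, the enzyme that makes histamine. It stood at 0.508, 0.512 and 0.558 FPKM in knock-in retina, at 0.666, 0.823 and 1.02 FPKM in knockout retina and at 2.26, 2.51 and 2.75 FPKM in wild-type retina. All knock-in and knockout libraries were below all wild-type libraries, by log2 -2.23 in knock-in (SE 0.231, adjusted p = 4.25e-04) and log2 -1.59 in knockout (adjusted p = 0.00295). Of 7 tested genes of histamine synthesis, breakdown and reception, Hdc fell and none rose, against 0.265% of all tested genes called. The median was log2 0.02. The list was drawn up with earlier results of these data known, so a call in it is no separate result.

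Cd200, a neuronal ligand that restrains microglia through its receptor, stood at 13.1, 12.1 and 17.4 FPKM in knock-in retina, at 16.4, 14.1 and 17.7 FPKM in knockout retina and at 18.7, 18.6 and 22.1 FPKM in wild-type retina, lower in knock-in than in wild type without overlap (log2 -0.52, SE 0.0902, adjusted p = 0.0287). The Cd200 call was lost when any 1 of 6 libraries was left out (adjusted p up to 0.124). Sema7a, a membrane-anchored semaphorin, stood at 23.8, 23.9 and 22.4 FPKM in knock-in retina, at 14.8, 14.6 and 9.69 FPKM in knockout retina and at 18.1, 14.5 and 11.5 FPKM in wild-type retina. The knock-in libraries lay above the other 6, with log2 0.71 against wild type (SE 0.0889, adjusted p = 0.00192) and log2 0.87 against knockout (adjusted p = 2.06e-04). Of 30 tested semaphorins, plexins and neuropilins 1 rose, none fell and 26 lay above 0, with a median of log2 0.09. Of all tested genes 0.265% were called and 50.2% lay above 0. The semaphorin list, too, was drawn up with earlier results of these data known. Lpcat2, an enzyme of phospholipid remodelling and platelet-activating factor synthesis, rose, at 17.9, 19 and 19.3 FPKM in knock-in and 14.2, 13.2 and 15.1 FPKM in wild type (log2 0.39, adjusted p = 0.0287). This call was lost when any 1 of 4 libraries was left out (adjusted p up to 0.176).

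Ift57 encodes a subunit of the intraflagellar transport complex that carries cargo along the photoreceptor cilium. It stood at 9.77, 13.8 and 11.1 FPKM in knock-in retina, at 14.5, 14 and 14.6 FPKM in knockout retina and at 4.61, 5.39 and 4.95 FPKM in wild-type retina. Both Abca4 genotypes were above every wild-type library, by log2 1.18 in knock-in (SE 0.132, adjusted p = 0.00192) and log2 1.51 in knockout (adjusted p = 1.59e-04). Of 29 tested genes of intraflagellar transport, Ift57 rose and none fell, against 0.265% of all tested genes called, and the median was log2 0.00. The list was drawn up with earlier results of these data known. Dnahc7b, an axonemal dynein heavy chain, fell, at 3.95, 3.63 and 4.4 FPKM in knock-in retina, at 3.62, 4.0 and 5.02 FPKM in knockout retina and at 5.27, 5.37 and 5.37 FPKM in wild-type retina (log2 -0.46, adjusted p = 0.0363).

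Rab37, a small GTPase of secretory vesicles, stood at 7.95, 6.68 and 8.84 FPKM in knock-in retina, at 3.03, 3.16 and 2.23 FPKM in knockout retina and at 3.26, 2.08 and 2.97 FPKM in wild-type retina. Knock-in alone was high, by log2 1.47 against wild type (SE 0.188, adjusted p = 0.00462) and log2 1.47 against knockout (adjusted p = 0.00173), and under the sex term the difference from wild type was log2 1.42 (adjusted p = 0.0783). Stau2, a carrier of mRNA into dendrites, stood at 25.3, 27.6 and 35.7 FPKM in knock-in retina, at 27.6, 27.8 and 37.5 FPKM in knockout retina and at 17.3, 18.2 and 23.4 FPKM in wild-type retina. Here both Abca4 genotypes lay above wild type, by log2 0.56 in knock-in (SE 0.0592, adjusted p = 4.25e-04) and log2 0.65 in knockout (adjusted p = 7.52e-05).

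Sntg1, a syntrophin that scaffolds membrane proteins, rose by a smaller step and stood at 5.64, 6.45 and 6.75 FPKM in knock-in retina, at 6.05, 5.8 and 6.39 FPKM in knockout retina and at 4.37, 4.42 and 5.03 FPKM in wild-type retina (log2 0.43, adjusted p = 0.0328). The knock-in libraries of Sntg1 lay above every wild-type library and overlapped knockout. The calls of Dnahc7b and Sntg1 were lost when any 1 of 6 and 7 libraries, in that order of genes, was left out, with adjusted p up to 0.188 and 0.182.

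Isyna1, the enzyme that makes inositol phosphate from glucose phosphate, stood at 12.1, 10.6 and 9.54 FPKM in knock-in retina, at 4.68, 7.46 and 5.0 FPKM in knockout retina and at 6.21, 5.33 and 4.09 FPKM in wild-type retina. Its knock-in libraries lay above the other 6 (log2 1.10, SE 0.152, adjusted p = 0.00462), with log2 0.93 against knockout (adjusted p = 0.0052). The adjusted p was 0.0524 without wild-type library 1, and the sex term gave log2 0.90 (adjusted p = 0.082). Gpsm3, a modulator of G-protein signalling, stood at 28.9, 21.9 and 20.9 FPKM in knock-in retina, at 13.5, 13.2 and 8.65 FPKM in knockout retina and at 14.2, 10.1 and 9.56 FPKM in wild-type retina. Knock-in was again apart (log2 1.13, SE 0.131, adjusted p = 0.0015), with log2 1.03 against knockout (adjusted p = 0.00113). Gpsm3 overlaps Pbx2 on the same strand, so that the counting could have split reads of the pair.

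Arhgap29, which switches off small GTPases and is the neighbour of Abca4, stood at 3.34, 2.6 and 3.45 FPKM in knock-in retina, at 2.24, 2.77 and 3.3 FPKM in knockout retina and at 1.43, 1.71 and 1.57 FPKM in wild-type retina. Knock-in and knockout overlapped and knock-in lay above wild type (log2 0.95, SE 0.131, adjusted p = 0.00462), with knockout at log2 0.77 (adjusted p = 0.0124). Adcy6, an adenylyl cyclase, stood at 35.7, 29.7 and 25.9 FPKM in knock-in and 27.5, 22.2 and 18.8 FPKM in wild type with overlapping groups (log2 0.44, adjusted p = 0.026). The kinase Hunk was lower, at 12.3, 13.1 and 13 FPKM in knock-in retina, at 10.6, 10.8 and 10.5 FPKM in knockout retina and at 16.8, 16.6 and 15.9 FPKM in wild-type retina (log2 -0.34, adjusted p = 0.026), and knockout stood at log2 -0.62 (adjusted p = 1.28e-04). Cacna2d3, an auxiliary subunit of voltage-gated calcium channels, was lower as well, at 8.66, 9.62 and 11.7 FPKM in knock-in retina, at 9.37, 8.7 and 8.63 FPKM in knockout retina and at 11.9, 15.4 and 18 FPKM in wild-type retina (log2 -0.57, adjusted p = 0.0402). The calls of Adcy6, Hunk and Cacna2d3 were lost when any 1 of 4, 6 and 6 libraries, in that order of genes, was left out (adjusted p up to 0.171, 0.0985 and 0.194).

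Ccdc115 encodes an assembly factor of the V-ATPase, the proton pump of lysosomes and synaptic vesicles. It stood at 21.8, 23.1 and 18.3 FPKM in knock-in retina, at 21.7, 21.7 and 21.8 FPKM in knockout retina and at 33.8, 35.4 and 31.4 FPKM in wild-type retina. No library of either Abca4 genotype reached wild type, with log2 -0.68 in knock-in (SE 0.0713, adjusted p = 4.25e-04) and log2 -0.64 in knockout (adjusted p = 5.35e-04). Of 20 tested genes of the pump and its assembly, Ccdc115 fell, none rose and 3 lay above 0, with a median of log2 -0.07. Of all tested genes, 0.265% were called and 50.2% were above 0. The list of the pump was drawn up with earlier results of these data known. Lyrm7, an assembly factor of respiratory complex III, fell, at 0.633, 1.12 and 0.784 FPKM in knock-in retina, at 1.65, 1.72 and 3.29 FPKM in knockout retina and at 2.54, 2.56 and 2.33 FPKM in wild-type retina (log2 -1.58, SE 0.261, adjusted p = 0.0216). The call was lost when any 1 of 4 libraries was left out (adjusted p up to 0.113).

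Ssbp4, of a family of single-stranded DNA binding cofactors, stood at 90.9, 97.1 and 79.3 FPKM in knock-in retina, at 45.5, 49.7 and 27 FPKM in knockout retina and at 56.8, 36.8 and 26.3 FPKM in wild-type retina. It had the highest knock-in level of the called genes that rose at least 2-fold (log2 1.29, SE 0.13, adjusted p = 0.00192), with log2 1.18 against knockout (adjusted p = 0.00158). Under the sex term its difference from wild type was log2 1.26 (adjusted p = 0.0814). Tcea3, a transcription elongation factor, stood at 1.75, 1.73 and 3.14 FPKM in knock-in retina, at 0.746, 0.94 and 0.605 FPKM in knockout retina and at 0.586, 0.412 and 0.771 FPKM in wild-type retina, on 11, 6.0 and 10 fragments in wild type (log2 1.92, SE 0.331, adjusted p = 0.0267). The call was lost when any 1 of 3 libraries was left out (adjusted p up to 0.163).

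Osgep, of a complex that modifies tRNA, stood at 33, 36.3 and 34.4 FPKM in knock-in retina, at 21.3, 21.9 and 18.8 FPKM in knockout retina and at 27.1, 23.6 and 23.9 FPKM in wild-type retina. Knock-in was above all others (log2 0.48, adjusted p = 0.0169). Against knockout the difference was log2 0.75 (adjusted p = 2.06e-04). Snhg6, a small nucleolar RNA host gene, stood at 27, 28.2 and 28.1 FPKM in knock-in retina, at 29.5, 26 and 30.7 FPKM in knockout retina and at 45.9, 48 and 50.8 FPKM in wild-type retina. Both Abca4 genotypes were below wild type, by log2 -0.83 in knock-in (SE 0.118, adjusted p = 0.00591) and log2 -0.80 in knockout (adjusted p = 0.00464), and the knock-in adjusted p was 0.0508 without wild-type library 1. Hist2h2be fell (log2 -0.47, adjusted p = 0.0489) and Hist3h2a rose (log2 0.35, adjusted p = 0.0447), and both are histone genes with close copies between which reads could be split.

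Prune, a phosphatase of short polyphosphates, stood at 7.04, 8.11 and 7.41 FPKM in knock-in retina, at 10.4, 9.34 and 8.58 FPKM in knockout retina and at 11.2, 10.6 and 8.92 FPKM in wild-type retina (log2 -0.45, adjusted p = 0.0316). Col19a1, a basement membrane collagen, stood at 1.03, 1.12 and 1.39 FPKM in knock-in retina, at 1.82, 1.65 and 2.4 FPKM in knockout retina and at 1.53, 1.65 and 1.91 FPKM in wild-type retina (log2 -0.55, adjusted p = 0.036). For each of these genes the knock-in libraries lay below all others. Filip1l, a filamin partner, fell (log2 -0.49, adjusted p = 0.0316) and Tmlhe, of carnitine synthesis, rose (log2 0.33, adjusted p = 0.0454), both with overlapping groups. The calls of Osgep, Hist2h2be, Hist3h2a, Prune, Col19a1, Filip1l and Tmlhe were lost without at least 3 of the 9 single libraries each.

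**Figure D2:**
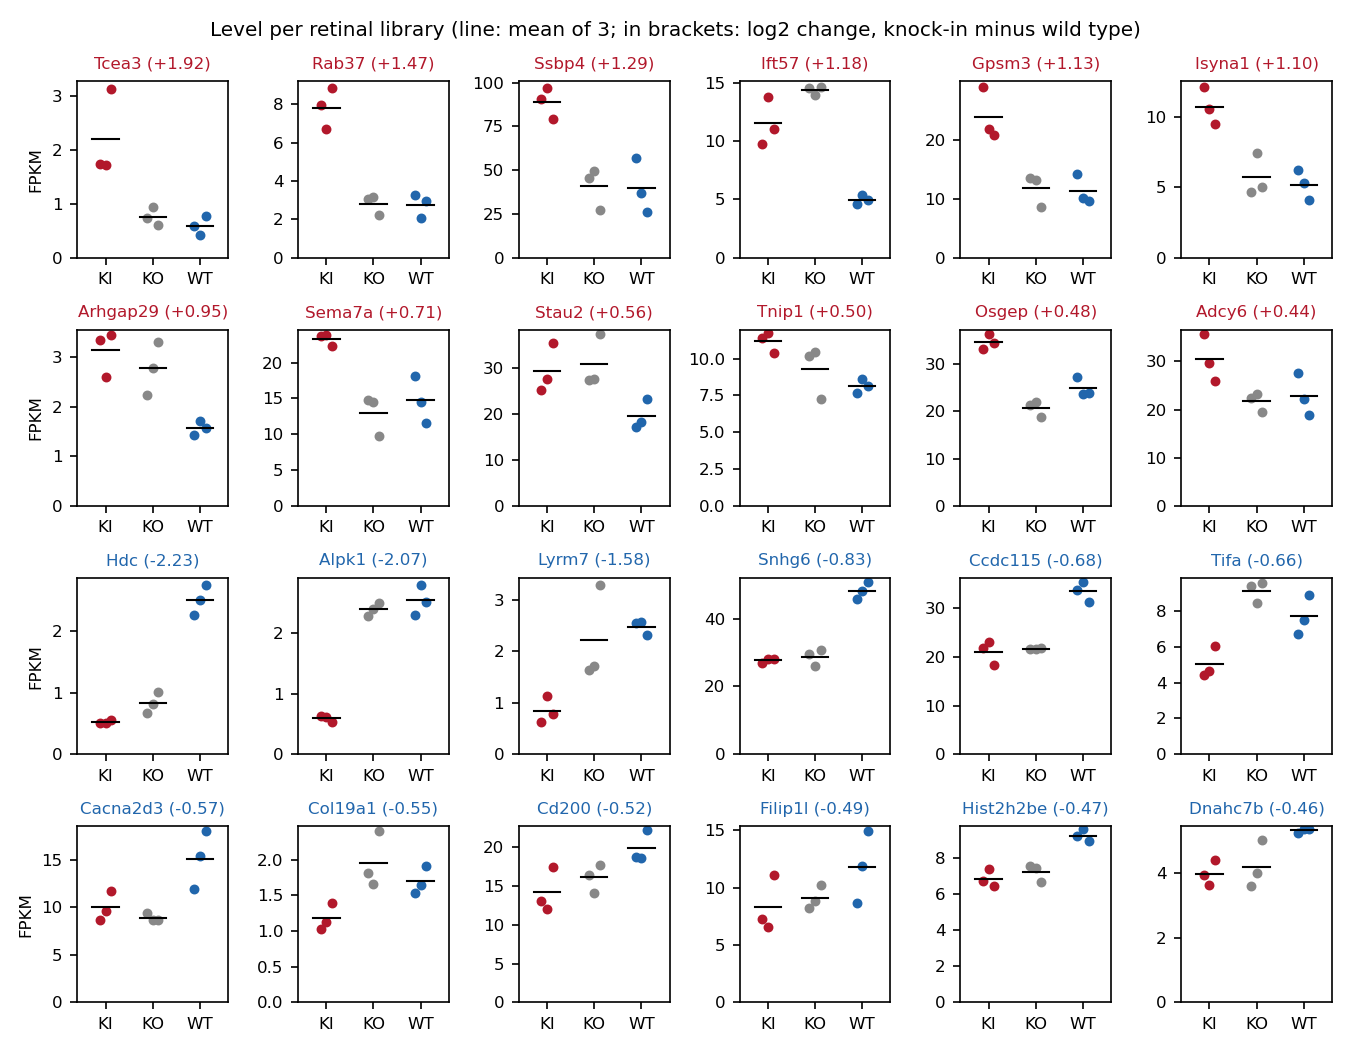
Each panel gives FPKM of 1 gene in the 3 knock-in (KI), 3 knockout (KO) and 3 wild-type (WT) retinal libraries, with a line at each group mean. The upper panels show 12 of the largest rises and the lower panels the 12 largest falls among called genes with an established name. Knock-in and wild-type values overlap for Adcy6 and Filip1l.

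Genes known by clone or model names made up much of the rest. The lowest change among the called genes was that of 2610507I01Rik, at 0.543, 0.344 and 0.415 FPKM in knock-in retina, at 2.22, 2.52 and 4.31 FPKM in knockout retina and at 4.85, 4.62 and 2.4 FPKM in wild-type retina (log2 -3.22, SE 0.382, adjusted p = 0.0169). Its call was lost when any 1 of 4 libraries was left out (adjusted p up to 0.122). 6430706D22Rik stood at 1.76, 1.76 and 2.0 FPKM in knock-in retina, at 1.6, 1.41 and 1.69 FPKM in knockout retina and at 6.04, 6.08 and 5.46 FPKM in wild-type retina. Wild type alone was high (log2 -1.70, SE 0.112, adjusted p = 2.89e-06). Gm16432, named Catspere2 in GENCODE, stood at 3.78, 3.25 and 4.39 FPKM in knock-in retina, at 17.4, 11.2 and 19.6 FPKM in knockout retina and at 10.9, 10.7 and 13.3 FPKM in wild-type retina. Knock-in alone was low (log2 -1.68, SE 0.153, adjusted p = 2.68e-04). 4930481A15Rik stood at 7.96, 11.2 and 9.39 FPKM in knock-in retina, at 3.05, 4.36 and 4.95 FPKM in knockout retina and at 2.96, 2.72 and 2.2 FPKM in wild-type retina. Knock-in alone was high (log2 1.75, SE 0.203, adjusted p = 0.00112). It is annotated antisense to Drap1, and whether the counting used strand is not given in the sources used here, so reads of the pair may not be told apart.

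The remaining calls were 5430419D17Rik (log2 -1.56, adjusted p = 0.0169), 3110035E14Rik, named Vxn (log2 1.19, adjusted p = 0.036), Gm15348 (log2 1.07, adjusted p = 0.0306) and 4930422G04Rik, named Zgrf1 (log2 0.66, adjusted p = 0.0169), each lost without at least 4 of the 9 single libraries. Alpk1, 6430706D22Rik, Gm16432 and 4930481A15Rik were called in every retinal fit run. Some of the other called genes also overlap another gene in GENCODE, as Gpsm3 and 4930481A15Rik do.

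The share of genes called differed between chromosomes (mm9), without a test. On chromosome 1, 9 of 858 tested genes were called (1.05%), on chromosome 16, 4 of 454 (0.881%), and on chromosome 3, 6 of 739 (0.812%), against 0.265% overall. Of the 39, 17 had another called gene starting within 5 Mb, in 6 groups. Isyna1 and Ssbp4, both higher, lie at 73.1 Mb of chromosome 8. Lyrm7, Tnip1, Hist3h2a and 2610507I01Rik lie between 54.7 and 59.0 Mb of chromosome 11, and Sntg1, 3110035E14Rik and Snhg6 between 8.4 and 9.9 Mb of chromosome 1. These stretches are bounded by the called genes themselves. On chromosome 1, Stau2, Snhg6, Ccdc115, Sntg1, Dnahc7b and 6430706D22Rik were also called in knockout against the same wild-type libraries, in the same direction. Gm16432, 3110035E14Rik and Col19a1 were not. Of all 39 genes, 12 were called in knockout against wild type.

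The region around the altered gene held a larger share of calls than the genome. Within 10 Mb of Abca4, 4 of 82 tested genes were called (4.88%, against 0.265% of all), 2 higher and 2 lower. They were Arhgap29, beside Abca4 at -0.03 Mb (log2 0.95), and 4930422G04Rik at 5.37 Mb (log2 0.66), Alpk1 at 5.49 Mb (log2 -2.07) and Tifa at 5.61 Mb (log2 -0.66). Gclm, of glutathione synthesis and the neighbour on the other side, stood at 15.4, 13 and 13.6 FPKM in knock-in and 12.9, 14.4 and 12.1 FPKM in wild type (log2 0.06, adjusted p = 0.924). With a mixed background in the labels, the substitutions cannot be told apart from strain sequence differing between the genotypes, near Abca4 or elsewhere.

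**Figure D3:**
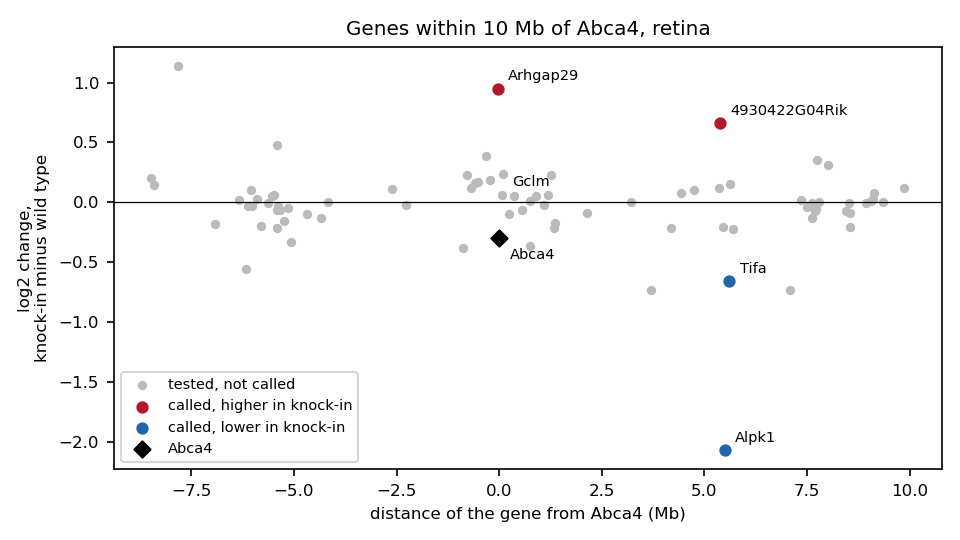
The log2 change, knock-in over wild type, of tested genes within 10 Mb of Abca4 is plotted against the distance from Abca4 in Mb. Arhgap29 stands out beside Abca4 at log2 0.95, and 4930422G04Rik, Alpk1 and Tifa stand together more than 5 Mb away.

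Isoform estimates showed differences that the gene totals did not. Of 18436 tested isoforms 11 were called (0.0597%), 6 of them the single listed isoform of Alpk1, 6430706D22Rik, Ccdc115, Gm16432, Ssbp4 and Hdc. For Rab37 the isoform NM_021411 was called, at 7.52, 6.34 and 8.2 FPKM in knock-in, 2.43, 2.54 and 2.23 FPKM in knockout and 2.1, 1.8 and 2.42 FPKM in wild type (log2 1.81, adjusted p = 0.0217). The other 4 belong to Fancg, Pcdh15 and Etv1, whose totals were not called, and which are named after their values were seen.

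Fancg is a subunit of the Fanconi anaemia complex of DNA repair. Its isoform NM_053081 stood at 4.26, 3.62 and 2.92 FPKM in knock-in, 2.53, 2.76 and 3.33 FPKM in knockout and 0.00985, 0.00383 and 0.000758 FPKM in wild type (adjusted p = 0.00191). Its isoform NM_001163233 stood at no more than 0.00675 FPKM in any knock-in or knockout library and at 3.55, 3.38 and 2.96 FPKM in wild type (adjusted p = 0.0319). The isoform assigned thus differed between both Abca4 genotypes and wild type while the total of Fancg stood at 4.26, 3.62 and 2.92 FPKM in knock-in and 3.56, 3.38 and 2.96 FPKM in wild type (log2 0.13, adjusted p = 0.87).

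Pcdh15 encodes a cadherin of photoreceptors and hair cells. Of its 14 listed isoforms, NM_001142740 stood at 0.00237, 0 and 0 FPKM in knock-in, 1.29, 0.798 and 1.57 FPKM in knockout and 2.06, 1.69 and 2.12 FPKM in wild type (adjusted p = 0.00122). The gene total of Pcdh15 was 42.7, 33.4 and 34.8 FPKM in knock-in and 37.1, 39.5 and 38 FPKM in wild type (log2 -0.04, adjusted p = 0.963). For the transcription factor gene Etv1, NM_001163154 stood at 0.406, 0.39 and 0.371 FPKM in knock-in, 0.447, 0.31 and 0.436 FPKM in knockout and 0.000118, 0 and 0.000283 FPKM in wild type (adjusted p = 0.0221). Isoforms share reads, and the count of calls was 5 without knock-in library 0 or wild-type library 0, 6 without knock-in library 1 or 2, and 233 with DESeq2.

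Genes of photoreceptors held no call. Of 20 tested genes of rod phototransduction 1 lay above 0, with a median of log2 -0.08, against 0.00 and 50.2% for all genes. Their summed level was 27910 to 29790 FPKM in knock-in, 28850 to 31630 FPKM in knockout and 30260 to 31040 FPKM in wild type. Guca1b, an activator of guanylate cyclase, stood at 199, 246 and 189.8 FPKM in knock-in and 299, 286 and 213 FPKM in wild type with overlapping groups (log2 -0.29, adjusted p = 0.272). The rod channel gene Cnga1 stood at 247, 292 and 357 FPKM in knock-in and 289, 311 and 403 FPKM in wild type (log2 -0.16, adjusted p = 0.421). The 12 cone genes had a median of log2 0.00, with the cone channel Cnga3 at log2 0.29 (adjusted p = 0.328) and the opsin Opn1sw at log2 0.21 (adjusted p = 0.339). Of 26 genes of photoreceptor structure and identity 7 lay above 0, and Fscn2, an actin-bundling protein, came nearest to the threshold at 55, 58.6 and 41.2 FPKM in knock-in and 71.6, 68.9 and 55.4 FPKM in wild type with overlapping groups (log2 -0.32, adjusted p = 0.0504). Impg1, of the matrix between photoreceptors, was at log2 -0.23 (adjusted p = 0.278).

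Of 16 other tested genes of the retinoid cycle 10 lay above 0 and none was called, with a median of log2 0.12. Rpe65, the isomerase of the pigment epithelium, stood at 5.04, 5.01 and 6.6 FPKM in knock-in and 2.76, 2.65 and 3.56 FPKM in wild type without overlap (log2 0.84, adjusted p = 0.121). Dhrs3, a reductase of all-trans-retinal, stood at 45.8, 58.8 and 50.8 FPKM in knock-in and 79.3, 71.3 and 58.9 FPKM in wild type, also without overlap (log2 -0.39, adjusted p = 0.135). The highest genes of the list, Rgr (log2 0.99), Rpe65, Lrat (log2 0.77) and Rdh5 (log2 0.61), are also among the pigment epithelium markers given below. Rdh8 (log2 -0.01) and Rdh12 (log2 -0.39), also on the list of photoreceptor structure and identity, were not above 0. The part of tissue makeup was not tested. The 11 other tested Abca transporters had a median of log2 0.06 and no call, with Abca6 at log2 -0.29 (adjusted p = 0.438) and Abca13 at log2 -0.24 (adjusted p = 0.512).

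No gene of protein quality control was called. The 28 genes of endoplasmic reticulum chaperones and degradation lay between log2 -0.20 and 0.10, 16 of them above 0 with a median of log2 0.03. Their summed level was 1373 to 1541 FPKM in knock-in, 1384 to 1496 FPKM in knockout and 1410 to 1515 FPKM in wild type. Dnajb9, a chaperone of the unfolded protein response, stood at 18.6, 20 and 23.5 FPKM in knock-in and 20, 19.8 and 29.3 FPKM in wild type (log2 -0.20, adjusted p = 0.58). Sel1l, of the degradation complex, stood at 26, 24.3 and 24.6 FPKM in knock-in and 23.1, 24.2 and 21.8 FPKM in wild type (log2 0.10, adjusted p = 0.724). In counts simulated for this comparison, 95.7% of 2-fold changes and 48.4% of 1.5-fold changes were called. The simulation set the same variation for every gene and no difference in sex or tissue makeup. It changed 200 genes and gave 171 calls, against 39 calls in the real comparison. With more calls the adjusted threshold is met at a larger unadjusted p, so the shares called here may be lower. These shares need not hold for genes that vary more, and Cd59a was not called at log2 -1.19 (edgeR adjusted p = 0.145).

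The 16 genes of PERK and the integrated stress response had a median of log2 0.02, with Ddit4, an inhibitor of mTOR, at log2 -0.17 (adjusted p = 0.581) and the PERK gene Eif2ak3 at log2 0.11 (adjusted p = 0.739). The 21 cytosolic heat shock genes had a median of log2 -0.01. Among them Cryab, which is also abundant in lens, stood at 686, 37.6 and 39 FPKM in knock-in and 67.8, 29.1 and 23 FPKM in wild type (log2 2.68, adjusted p = 0.744), so that knock-in library 0 was alone at a high level among these 6, and the regulator Hsf1 was at log2 0.13 (adjusted p = 0.754). The 31 proteasome subunits had 6 members above 0 and a median of log2 -0.04, with the smallest p for Psmb1 (log2 -0.12, adjusted p = 0.533) and Psma3 (log2 -0.13, adjusted p = 0.551). The 30 genes of lysosome and autophagy had a median of log2 0.01, with the smallest p for Ctss (log2 -0.34, adjusted p = 0.562) and Grn (log2 0.18, adjusted p = 0.571).

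Lists of glia and immune cells held no call. The 20 microglial and macrophage genes had a median of log2 -0.07 and a summed level of 62.3 to 73.2 FPKM in knock-in, 79 to 109 FPKM in knockout and 69.4 to 77.4 FPKM in wild type, with the leukocyte phosphatase Ptprc at log2 -0.78 (adjusted p = 0.357). The 17 genes of Mueller glia and astrocytes had a median of log2 -0.03, with Apoe, a lipid carrier, at 618, 549.7 and 525 FPKM in knock-in and 494, 499.9 and 421 FPKM in wild type without overlap (log2 0.32, adjusted p = 0.25) and the carbonic anhydrase Car2 at log2 -0.14 (adjusted p = 0.657). The 15 genes of retinal stress and gliosis had a median of log2 -0.20, with Steap4 at log2 -1.06 (adjusted p = 0.412) and Serpina3n at 15.9, 15.9 and 15.8 FPKM in knock-in and 21.6, 20.1 and 23.9 FPKM in wild type (log2 -0.47, adjusted p = 0.612).

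Of 14 tested complement genes, with a median of log2 0.01, Cd59a, an inhibitor of the membrane attack complex, stood at 18.4, 17.9 and 10.6 FPKM in knock-in and 32.5, 34.9 and 38.3 FPKM in wild type. The groups were well apart without passing the test (log2 -1.19, SE 0.227, adjusted p = 0.145), and C1s was at log2 -0.70 (adjusted p = 0.537). The 23 interferon response genes had a median of log2 -0.07, with the smallest p for Ifit1 (log2 -0.76, adjusted p = 0.251) and Rsad2 (log2 -0.68, adjusted p = 0.606). The 20 cell death genes had a median of log2 -0.01, with the survival gene Bcl2 at 4.71, 3.95 and 4.04 FPKM in knock-in and 3.42, 3.1 and 3.44 FPKM in wild type without overlap (log2 0.34, adjusted p = 0.186) and Bid at log2 -0.53 (adjusted p = 0.489).

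Of 22 genes of cholesterol synthesis 6 lay above 0, with a median of log2 -0.11 and a summed level of 438 to 468 FPKM in knock-in, 430.5 to 503 FPKM in knockout and 480.3 to 507 FPKM in wild type, with the smallest p for Insig1 (log2 -0.18, adjusted p = 0.465) and Sqle (log2 -0.16, adjusted p = 0.563). The 19 clock genes had a median of log2 0.01, with the smallest p for Bhlhe40 (log2 0.27, adjusted p = 0.276) and Npas2 (log2 -0.50, adjusted p = 0.447). The 18 immediate early genes had a median of log2 0.04, with the smallest p for Ier2 (log2 0.24, adjusted p = 0.656) and Arc (log2 0.48, adjusted p = 0.672). None of these genes was called.

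**Figure D4:**
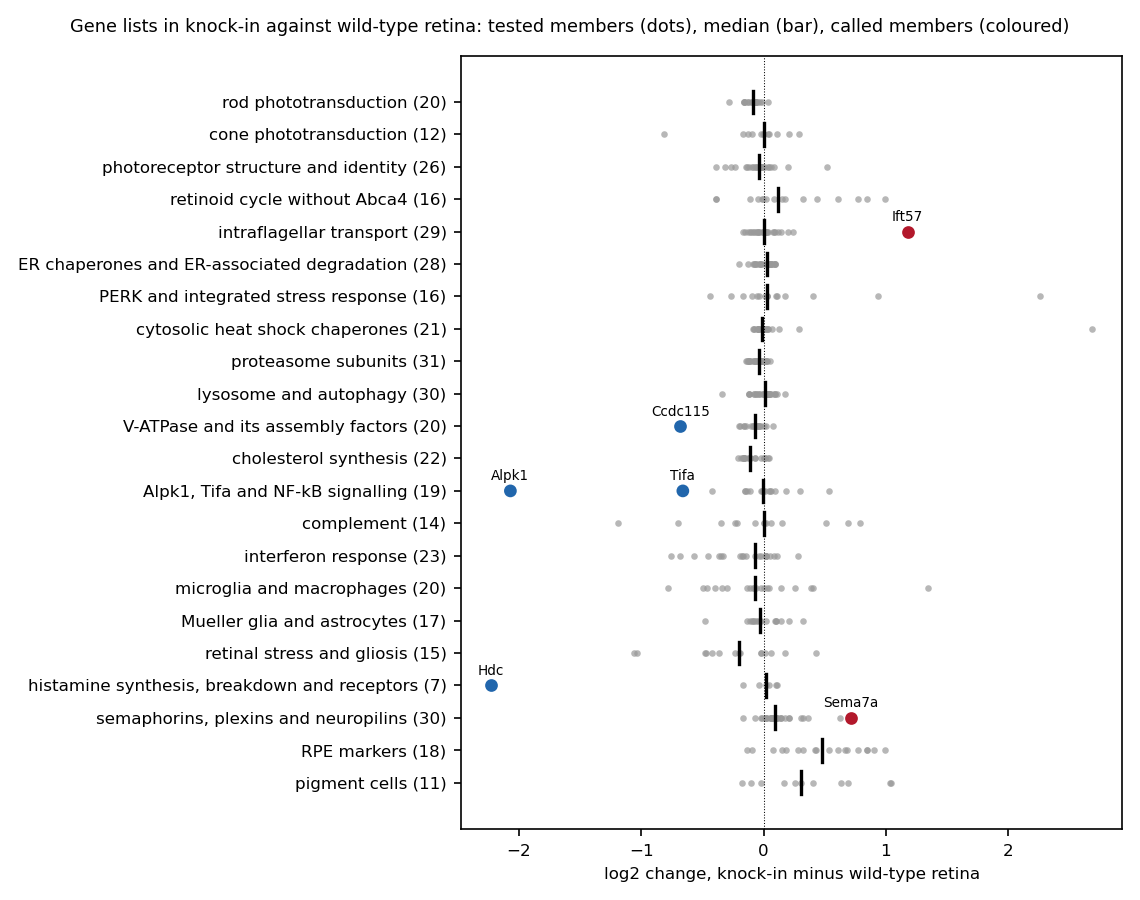
Each dot is the log2 change, knock-in over wild-type retina, of 1 tested gene of a list, with a bar at the median of the list. Coloured dots are called genes, among them Ift57, Ccdc115, Alpk1, Tifa, Hdc and Sema7a, and most other dots lie near 0.

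Lists of inner retinal neurons and vessels held no call either. Medians were log2 0.01 for 14 bipolar, -0.06 for 14 amacrine, -0.03 for 14 ganglion and 0.06 for 8 horizontal cell genes, and 0.12 for 17 genes of endothelium and pericytes. Vip, a neuropeptide of amacrine cells, had the smallest adjusted p of these lists, at 13.6, 17 and 20 FPKM in knock-in and 18.9, 18.5 and 25.4 FPKM in wild type (log2 -0.35, adjusted p = 0.146).

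Markers of tissues next to the retina differed between libraries. Of 18 tested markers of the pigment epithelium 16 lay above 0 and 9 did not overlap between groups, against 8.77% of all genes, with a median of log2 0.48 and no call. Their summed level was 188 to 204 FPKM in knock-in, 205 to 244 FPKM in knockout and 145 to 165 FPKM in wild type, and Krt18 stood at 76.8, 77.4 and 74.9 FPKM in knock-in and 65.2, 62.9 and 66.1 FPKM in wild type (log2 0.28, adjusted p = 0.145). The 11 pigment cell genes had a median of log2 0.30, with the smallest p for Oca2 (log2 1.04, adjusted p = 0.185) and Tyrp1 (log2 1.03, adjusted p = 0.561). In bulk samples a difference in the number of cells, including cells of neighbouring tissue, and a difference in RNA per cell cannot be told apart.

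All 22 lens genes lay above 0, with a median of log2 2.79 and no call. Their summed level was 8159, 631 and 666 FPKM in knock-in, 722 to 15680 FPKM in knockout and 61.4 to 1126 FPKM in wild type, so that knock-in library 0 carried far more lens RNA than the other knock-in libraries. Mip, a water channel of lens fibres, had an adjusted p of 0.714. The 6 tested erythroid genes had a median of log2 -0.85 and a summed level of 76.4 to 97 FPKM in knock-in, 63.6 to 85.2 FPKM in knockout and 136 to 155 FPKM in wild type. Haemoglobin beta (Beta-s) stood at 44.3, 49.7 and 38.7 FPKM in knock-in and 93.6, 65.2 and 85.7 FPKM in wild type (log2 -0.90, adjusted p = 0.186) and Alas2 at log2 -0.81 (adjusted p = 0.217). Lists of skeletal muscle and of cornea, conjunctiva and iris epithelium, each summing to under 10 FPKM in every retinal library of both groups, and of sex-linked genes held no call. With a term for lens content 21 of the 39 genes kept their call. With a term for pigment epithelium content 5 did, among them Alpk1, 6430706D22Rik, Gm16432 and 4930481A15Rik. The summed pigment epithelium level did not overlap between knock-in and wild type, so this term and genotype cannot be fully told apart. The part of tissue makeup in single calls was not tested.

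In RPE/choroid the same contrast called 10 of 15454 genes (0.0647%), with an unadjusted p under 0.05 for 854 (5.53%), and Alpk1 was the 1 gene of the 39 among them. It stood at 3.12, 3.44 and 3.08 FPKM in knock-in RPE/choroid, at 7.61, 6.68 and 8.29 FPKM in knockout RPE/choroid and at 5.84, 6.87 and 6.07 FPKM in wild-type RPE/choroid. Every knock-in library lay below every other (log2 -0.97, SE 0.0979, adjusted p = 0.00855). The adjusted p was 0.0676 without knock-in library 0, 0.0588 with knock-in library 2 left out and 0.0577 with wild-type library 1 left out.

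Of the genes called in retina, 38 were tested in RPE/choroid. 4930481A15Rik stood at 6.23, 6.79 and 5.39 FPKM in knock-in RPE/choroid, at 2.07, 2.86 and 1.63 FPKM in knockout RPE/choroid and at 3.32, 1.06 and 1.53 FPKM in wild-type RPE/choroid (log2 1.6, adjusted p = 0.376), with knock-in above the other 6 libraries. Ift57 stood at 10.4, 9.0 and 10.3 FPKM in knock-in RPE/choroid, at 12.6, 10.8 and 14.9 FPKM in knockout RPE/choroid and at 6.97, 5.06 and 4.93 FPKM in wild-type RPE/choroid (log2 0.82, adjusted p = 0.758), with both Abca4 genotypes above wild type. Neither passed the test in that tissue. Retinal calls also called in RPE/choroid numbered 5 without wild-type RPE/choroid library 0, and 0 or 1 without each other knock-in or wild-type library. In wild-type RPE/choroid 2610507I01Rik stood at 0.0358, 4.17 and 5.29 FPKM, against 0.171, 0.286 and 0.0861 FPKM in knock-in. Lyrm7 stood at 0.605, 2.2 and 2.9 FPKM in wild-type RPE/choroid and at 0.472, 0.55 and 0.967 FPKM in knock-in.

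The difference between tissues was tested in a fit of all 18 libraries, which called 9 of 16222 genes (0.0555%), 5 of them among the 39. The knock-in effect on Ssbp4 was log2 1.34 higher in retina than in RPE/choroid (adjusted p = 0.010), where it stood at 33.1, 24.1 and 22.9 FPKM in knock-in and 31.2, 24.6 and 21.5 FPKM in wild type. The effect was log2 1.32 higher for Gpsm3 (adjusted p = 0.0391) and log2 1.03 higher for Isyna1 (adjusted p = 0.0391). For Alpk1, lower in both tissues, it was log2 -1.09 (adjusted p = 0.010), and for Filip1l log2 -0.71 (adjusted p = 0.0497).

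**Figure D5:**
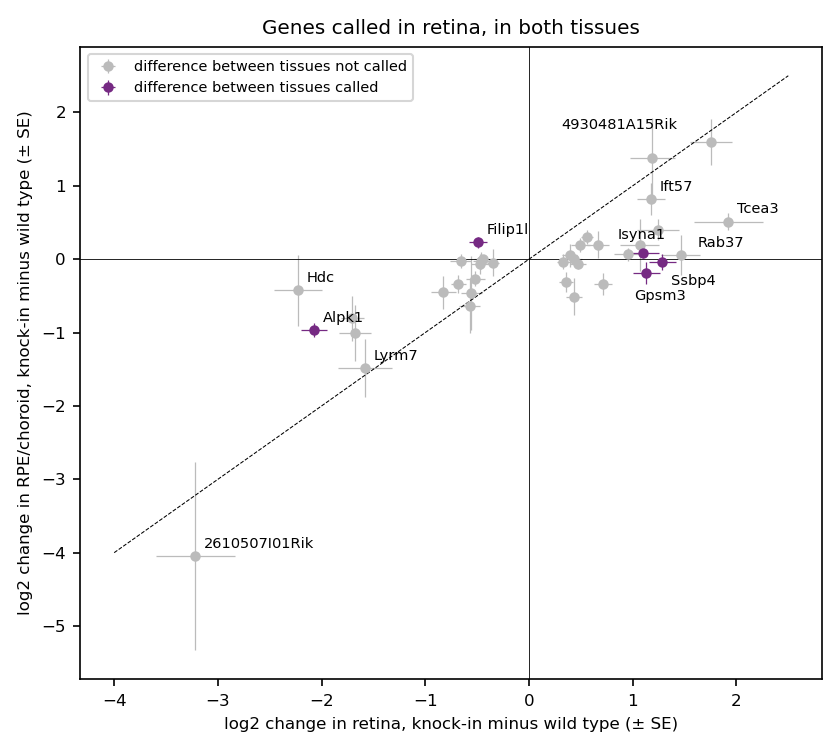
The log2 change, knock-in over wild type, in RPE/choroid is plotted against that in retina for the 38 genes tested in both, with bars of 1 SE and a dashed line of equal change. Purple points are the 5 genes called for a difference between tissues, and of these Ssbp4, Gpsm3 and Isyna1 lie near 0 in RPE/choroid while Alpk1 is lower in both.

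As many as 290 genes had, in the authors' deposited table, a q-value under 0.05 for knock-in against wild-type retina, 226 of them higher and 64 lower in knock-in. Of the 39 genes called here 34 were among them. By q-value in the authors' deposited table, those not among them included 4930481A15Rik (0.0887), 3110035E14Rik (0.0896), Hist2h2be (0.0736) and Cacna2d3 (0.931). Abca4 had a q-value of 0.886 in the authors' deposited table.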

How the data were processed

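Retinal and RPE/choroid RNA-seq libraries of 3 genotypes, 3 each, were analysed from the deposited tables. Per the submitters' processing notes TopHat, Bowtie2 and Cufflinks were used with mm9, with versions and strand setting not given in the sources used here. Per the file headers, the authors' tables give estimated counts of fragments (expected counts) and FPKM per gene and isoform and library, isoform length, and a p-value and q-value per gene. The deposited counts were rounded to whole numbers; 25 gene names damaged into dates were restored through transcript accessions. Library numbers 0 to 2 of the tables were matched to the labels by group only, so a number names a library and pairs nothing.

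The rounded counts entered edgeR 4.0.16 under R 4.3.3 (filterByExpr, TMM, robust quasi-likelihood fit of the 9 retinal libraries, Benjamini-Hochberg adjusted p under 0.05). Biological coefficients of variation were 0.114 (retina), 0.154 (RPE/choroid) and 0.295 (isoforms). In simulated retinal data with known changes and the same variation set for every gene, 7 of 171 calls were false. DESeq2 1.42.0, limma 3.58.1 on log2(FPKM + 1) and log2(FPKM + 0.1), other scalings and filters, a replicate block, sex, lens and RPE terms, and leaving out each library were tried. No libraries were copies of each other. Named genes were the altered gene, the 12 highest and 12 lowest changes of called genes with an established name, the other called genes, the genes of each of 36 lists that were called or, in lists with none, had the smallest p, and the neighbours of Abca4. The members and lists were chosen with earlier results of these data known. Sequences came from GENCODE M21 and RefSeq (GRCm38), and coordinates of genes from the tables are mm9. Of the genes covered by the naming rule, some are not reported here, although they are included in the counts.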

Additional observations from a re-analysis of the deposited data

Results flagged for a closer look

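In 5 of the 39 genes the knock-in effect differed between retina and RPE/choroid by a test of the difference itself (edgeR interaction over 18 libraries, 9 of 16222 genes called). The difference was log2 1.34 for Ssbp4 (adjusted p = 0.010), log2 1.32 for Gpsm3 (adjusted p = 0.0391) and log2 1.03 for Isyna1 (adjusted p = 0.0391), which rose in retina. In RPE/choroid Gpsm3 stood at 10.1, 7.98 and 8.12 FPKM in knock-in and 10.2, 7.69 and 11 FPKM in wild type, and Isyna1 at 24.1, 24.5 and 17.5 FPKM in knock-in and 20.7, 20.6 and 17.3 FPKM in wild type. It was log2 -1.09 for Alpk1 (adjusted p = 0.010), which fell in both tissues, and log2 -0.712 for Filip1l (adjusted p = 0.0497), which in RPE/choroid stood at 15.2, 18.2 and 18.5 FPKM in knock-in and 14.8, 17.4 and 16.3 FPKM in wild type.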

How the results depend on the processing

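Knock-in against wild-type retina gave 39 calls also with RLE or upper-quartile scaling, 55 without a filter, 35 at a mean FPKM of at least 1 and 41 in the 6 libraries alone. It gave 115 with DESeq2, 9 and 11 with limma at pseudocounts of 1 and 0.1, 14 with a sex term, 25 with a lens term, 22 with an RPE term, and 15 to 60 without single libraries. Knock-in against knockout gave 185 calls, 322 with DESeq2, 20 with limma at either pseudocount, 289 with a sex term and 103 to 216 without single libraries. Retinal calls also called in RPE/choroid numbered 1, 3 with DESeq2, 0 with a replicate block and 0 to 5 without single libraries. Differences between tissues numbered 9, and 36 with DESeq2. Isoform calls numbered 11, 233 with DESeq2, 3 with a replicate block and 5 to 11 without single libraries. Abca4 passed with DESeq2 (log2 -0.30, adjusted p = 0.0323) and with a replicate block (log2 -0.30, edgeR adjusted p = 0.0432), and lay between log2 -0.40 and -0.24 without single libraries. The cause of these shifts was not tested.

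Signs turned only in genes that were not called. Krt19 was at log2 -0.34 with a sex term, -0.51 in female libraries, -0.57 with a lens term and -0.98 without knock-in library 0. With the lens term Cryab was at -0.74 and Gclm at -0.11. Leaving out single libraries moved Krt19 between -0.98 and 5.21 and Gclm between -0.039 and 0.13, with Gclm at -0.011 when wild-type library 2 was dropped and -0.039 when knock-in library 0 was. With the RPE term log2 values were -0.17 for Eif2ak3, 0.0057 for Car2, 0.022 for C1s, -0.087 for Bhlhe40, -0.073 for Gja10, -0.058 for Cspg4 and 0.42 for Neb. A replicate block gave 45 calls, 31 of them among the 39. In their deviations, same-numbered knock-in and wild-type libraries correlated at 0.137, -0.001 and 0.213, and differently numbered ones at -0.223 to 0.028. Same-numbered knock-in and knockout libraries correlated at -0.468, -0.303 and -0.093. Whether the numbers pair the samples is not given in the labels and was not tested.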
